A study of Mus musculus with 14 samples.

Results

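Immediate early and feedback genes were read in the duodenal mucosa of mice that had been fasted or fed a single meal. The group comprised 37 genes given by symbol: 23 transcription factors and other nuclear proteins, 5 Dusp genes, 7 other feedback genes and 2 matricellular genes. All 37 were found among 18193 genes with a probe set of their own on the array, 2 of them (Cyr61 and Ctgf) under an older name. Affymetrix mouse expression arrays, 14 in all, covered 7 groups of male C57BL6 mice, 12 wk old, which had all received a low-fat (LF) diet for 2 wk and then been fasted for 12 h. The 6 fed groups ate a high-fat meal (HF30min, HF1h and HF3h, 60% of calories from fat) or a LF meal (LF30min, LF1h and LF3h, 10% of calories from fat) and were killed at the time in their name, counted from the start of eating, and the Fasting group received no meal. Fed mice ate ad libitum up to that time, so time spent eating differed between pools. The paper reports that LF groups took in more sucrose and glucose polymer than the HF groups. Carbohydrate made up 20% of the calories of the HF meal and 70% of those of the LF meal, so fat and carbohydrate differed together. The mucosal RNA of 20 mice was pooled in each group and hybridised to 2 arrays, which are technical repeats, so errors and p-values covered array-to-array error only and not the spread between mice.

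Immediate early genes are switched on by signalling that is already in place, without new protein synthesis, when growth factors, hormones or stress reach a cell. Mitogen-activated protein kinases (MAPK) and cAMP signalling act on factors such as SRF and CREB at their promoters, and the products include the AP-1, EGR, NR4A and KLF transcription factors. Feedback genes are induced by the same signals and limit them: dual-specificity phosphatases (Dusp) remove phosphate from MAPK, Socs3 blocks cytokine receptor signalling, and Zfp36 speeds the decay of short-lived mRNA.

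Promoter sequences are shown for 3 of the genes called below with large changes against Fasting, rises of Socs3 and Atf3 and a fall of Fos. Each sequence holds a motif that is counted below. They span 250 bases before to 50 bases after a RefSeq start position (GRCm38.p6), and are written in the direction of the gene. For Socs3 this position is not the outer end of the gene: its window lies within the annotated gene (117966079 to 117970336). The windows were chr11:117969317-117969616 for Socs3 (minus strand), chr1:191183284-191183583 for Atf3 (minus strand) and chr12:85473640-85473939 for Fos (plus strand). Capitals mark a match to the EGR site in Socs3 and to the short CRE, the core of the CREB-binding cAMP response element, in Atf3 and Fos, read in Socs3 and Atf3 as the reverse complement.
Socs3: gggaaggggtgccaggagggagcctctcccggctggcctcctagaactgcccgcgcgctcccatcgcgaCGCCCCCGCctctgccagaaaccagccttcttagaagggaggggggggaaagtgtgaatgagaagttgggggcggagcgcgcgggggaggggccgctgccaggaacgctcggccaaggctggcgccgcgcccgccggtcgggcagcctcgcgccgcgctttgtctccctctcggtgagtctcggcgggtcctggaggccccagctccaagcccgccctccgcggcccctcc
Atf3: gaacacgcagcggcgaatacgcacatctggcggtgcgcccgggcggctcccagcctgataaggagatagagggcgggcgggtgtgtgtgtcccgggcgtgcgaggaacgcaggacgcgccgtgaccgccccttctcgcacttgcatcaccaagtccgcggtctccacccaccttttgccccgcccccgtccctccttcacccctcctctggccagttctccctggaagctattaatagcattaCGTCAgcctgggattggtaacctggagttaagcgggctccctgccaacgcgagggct
Fos: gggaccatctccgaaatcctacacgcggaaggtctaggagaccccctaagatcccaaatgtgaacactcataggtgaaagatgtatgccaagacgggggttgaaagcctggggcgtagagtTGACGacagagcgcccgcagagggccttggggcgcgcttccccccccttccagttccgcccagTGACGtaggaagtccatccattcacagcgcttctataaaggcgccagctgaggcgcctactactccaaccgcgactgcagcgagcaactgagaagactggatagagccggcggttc
Of the 37 genes, 29 had a window in the table used. The short CRE, TGACG on either strand, was present in a window of 17 of these 29 (58.6%), against 23.0% of the 27025 genes with a window and 20.8% of all 32851 windows. The full CRE, TGACGTCA, which also counts as a short CRE, was found in 3 of 29 (10.3%, against 2.03% of all genes and 1.79% of windows). The EGR site, GCGNGGGCG, was found in 12 of 29 (41.4%, against 6.27% and 5.55%). The AP-1 site, TGANTCA, was found in 2 of 29 (6.9%, against 8.97% and 7.81%), and the CArG box bound by SRF in 3 of 29 (10.3%, against 1.81% and 1.63%). These matches describe letters in a window and not binding.

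Values are log2 intensities after the authors' Robust Multiarray Analysis, and 1 unit is a 2-fold change. A log2 value under 6 was treated as near background, and a change against it as a lower bound. A gene was called at an adjusted p under 0.05 in limma (Benjamini-Hochberg over 45037 probe sets), and modulated if it also changed at least 2-fold. Array medians lay between 4.47 and 4.55, and Pearson's r across probe sets between the arrays of a pool was 0.9958 to 0.9971. Of 9 enterocyte markers none was under 6 in any pool, and their summed level was 15.8 to 15.9 on the log2 scale in every group. Transcripts of stomach and Brunner's gland moved strongly between pools: the summed level of 8 markers was 13.82 to 13.83 at HF30min, 11.09 to 11.12 at HF1h and 12.86 to 12.88 at HF3h, and 13.5, 11.66 to 11.68 and 10.67 to 10.69 at LF30min, LF1h and LF3h, against 10.71 to 10.72 in Fasting. Of those 8 markers, 3 were under 6 in Fasting and none at HF30min. The 7 pancreatic acinar markers summed to 15.04 at HF30min, 16.25 to 16.27 at HF1h and 16.35 at HF3h, and to 15.68 to 15.71, 16.38 to 16.39 and 15.52 to 15.55 at the LF times, against 15.78 in Fasting. The 3' minus 5' difference of beta-actin, a sign of RNA quality, was 0.4 at LF3h and 0.43 to 0.53 in the other pools. The part of these markers in the results below was not tested.

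Transcript levels differed widely. Of the 37 genes, 27 reached a log2 value of 6 in at least 1 pool and 10 did not: Fosb, Fosl1, Egr2, Egr3, Klf2, Myc, Dusp2, Dusp4, Cyr61 and Ctgf, whose pool means lay between 3.24 (Egr2) and 5.79 (Egr3). The 27 were kept by their highest pool mean, so the following counts depend on that filter. Among the 27, the pool with the highest mean was LF30min for 10 genes, LF1h for 10, HF30min for 3, HF3h for 3 and LF3h for 1, and it was never Fasting or HF1h. Maff and Nr4a3, both highest at HF3h, were under 6 in Fasting (5.86 and 5.98). Fosb, which was left out, was highest in Fasting (3.84). The same counts were not made over all genes. The pool with the lowest mean was LF3h for 11 genes and Fasting for 10.

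Against Fasting, 16 of the 37 genes were called in at least 1 of the 6 fed pools. The share of all genes called in at least 1 of the 6 was not counted, so this number has no background beside it. Shares of all genes are given for each pool below. Of the 16, 12 were higher in some pool, 7 were lower in some pool, and Dusp5, Egr1 and Junb were both. At HF30min 5 genes rose and none fell (13.5% of the 37, where 1.12% of all genes and 1.94% of genes with a mean of at least 6 were called, and 0.759% of all genes rose and 0.363% fell). At HF1h 5 rose and none fell (13.5%, against 1.01% and 1.95%, with 0.649% of all genes higher and 0.357% lower), and at HF3h 5 rose and 4 fell (24.3%, against 6.67% and 13.3%, with 2.97% higher and 3.7% lower). After the LF meal 8 rose and none fell at 30 min (21.6%, against 0.401% and 0.78%, with 0.335% higher and 0.066% lower). At LF1h 9 rose and 1 fell (27%, against 1.54% and 2.89%, with 1.18% higher and 0.368% lower), and at LF3h 3 rose and 5 fell (21.6%, against 5.41% and 10.8%, with 3.13% higher and 2.28% lower). The median log2 fold change of the 37 was 0.19 at HF30min, 0.10 at HF1h and 0.06 at HF3h, and 0.23, 0.21 and -0.06 at LF30min, LF1h and LF3h, while the median of all genes stayed between -0.02 and 0.01. The 6 comparisons shared the Fasting arrays and were not independent of each other. Fewer cells of a type and less RNA per cell cannot be told apart in these pools. Of the 37, Socs3, Klf10, Atf3 and Egr1 alone were modulated by at least 2-fold in a pool: 1 gene at HF30min (0.198% of all genes), none at HF1h (0.126%) and HF3h (0.484%), 2 at LF30min (0.0879%), 3 at LF1h (0.264%) and 1 at LF3h (0.231%).

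**Figure D1:**
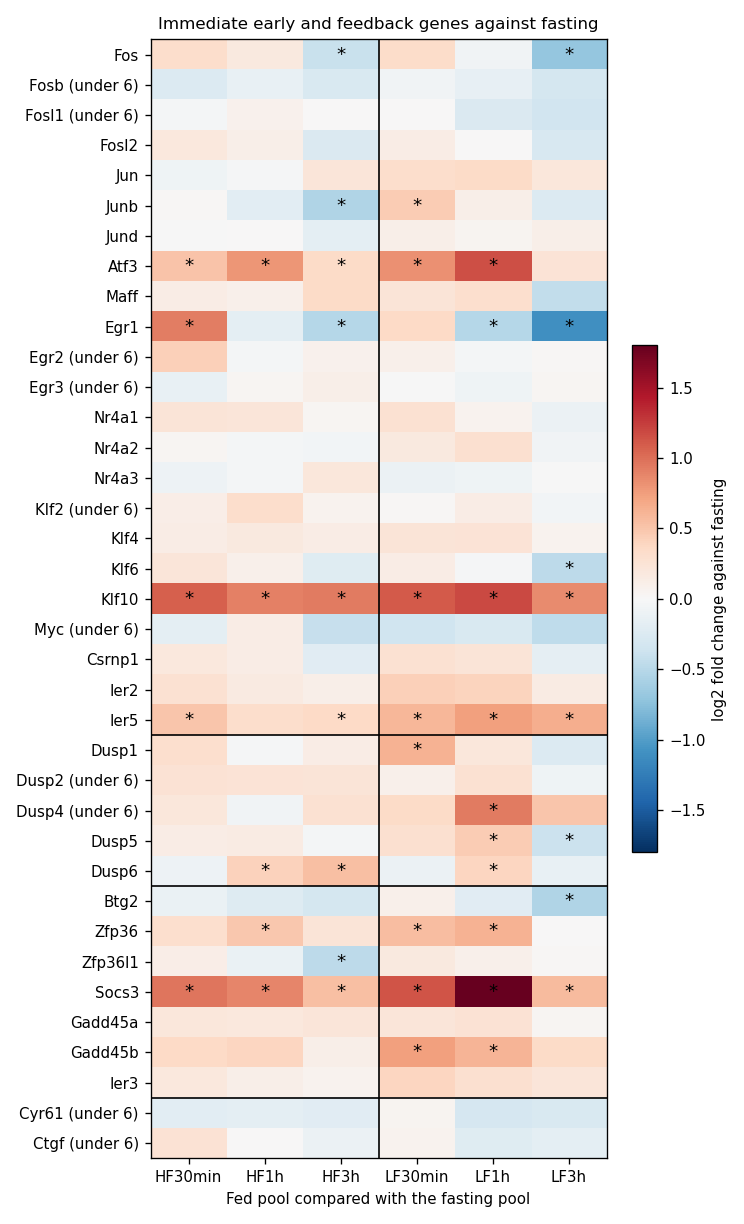
Log2 fold change against Fasting of all 37 genes (rows, grouped as nuclear, Dusp, other feedback and matricellular) in the 6 fed pools (columns). Red is higher and blue lower than in Fasting, an asterisk marks an adjusted p under 0.05, and "under 6" marks genes near background in every pool. Klf10 and Socs3 were higher in all 6 pools, and blue asterisks stand mostly in the 3 h columns.

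Klf10, a Krüppel-like repressor known as an early target of TGF-β, was higher in every fed pool. It read 7.07 and 7.08 in the Fasting arrays, 8.05 and 8.26 at HF30min, 8.0 and 7.98 at HF1h and 8.02 and 8.0 at HF3h. After the LF meal it read 8.08 and 8.30 at 30 min, 8.33 and 8.20 at 1 h and 7.86 and 8.0 at 3 h. No fed array came within the range of the Fasting arrays, and the rise was still present at 3 h after both meals. Log2 fold changes of Klf10 were 1.07, 0.91 and 0.93 after the HF meal and 1.11, 1.19 and 0.85 after the LF meal (SE 0.1 each), with adjusted p from 1.4e-05 (LF1h) to 0.00034 (HF1h), and no call was lost when any array was left out. The meals were not separated for Klf10: HF minus LF was -0.04 at 30 min (95% CI -0.26 to 0.18), -0.28 at 1 h (-0.50 to -0.06, adjusted p = 0.36) and 0.08 at 3 h (-0.14 to 0.30). Klf6, a related factor, was 9.05 and 8.96 at LF3h against 9.45 and 9.49 in Fasting, a fall of 0.47 (log2 fold change -0.47 ± 0.1, adjusted p = 0.013). That call was lost without either Fasting array (adjusted p = 0.074 and 0.089) or LF3h array 2 (0.12). Other probe sets of Klf6 read -0.64, -0.54, -0.31 and -0.28 at LF3h (adjusted p = 0.0016, 0.0038, 0.065 and 0.12). Klf4, with pool means of 11.19 to 11.44, was called in no comparison, and Klf2 was under 6.

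Atf3, a stress-induced partner of AP-1 proteins, rose at both early times. Its values were 6.74 and 6.76 in Fasting, 7.25 and 7.30 at HF30min, 7.53 and 7.57 at HF1h and 7.0 and 7.18 at HF3h. The LF series was 7.56 and 7.59 at 30 min, 7.93 and 7.90 at 1 h and 7.02 and 6.99 at 3 h. Both series were highest at 1 h and lower again at 3 h. Against Fasting, Atf3 rose by 0.52, 0.80 and 0.34 at HF30min, HF1h and HF3h (adjusted p = 0.0071, 0.00019 and 0.031) and by 0.82 and 1.16 at LF30min and LF1h (SE 0.08; adjusted p = 0.00019 and 2.4e-06), a 2.24-fold change at LF1h. The call at HF30min was lost without either Fasting array (0.096 and 0.056) or either HF30min array (0.051 and 0.091), and the call at HF3h without either Fasting array (0.17 and 0.13) or HF3h array 2 (0.24). HF minus LF was -0.37 at 1 h (95% CI -0.55 to -0.19) and did not pass the adjusted test (adjusted p = 0.13).

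Fos, the AP-1 subunit and best-known immediate early gene, was already well above background in the fasted mucosa and was lower at 3 h. It read 11.47 and 11.43 in Fasting, 11.73 and 11.81 at HF30min, 11.61 and 11.64 at HF1h and 11.04 and 11.05 at HF3h. Its LF series was 11.80 and 11.75, 11.35 and 11.41, and 10.71 and 10.81 at 30 min, 1 h and 3 h. At 30 min the fed arrays lay above the Fasting arrays after both meals, but the log2 fold changes of 0.32 at HF30min and 0.33 at LF30min did not pass the test (adjusted p = 0.083 and 0.13). At 3 h Fos fell by 0.40 after the HF meal (log2 fold change -0.40 ± 0.08, adjusted p = 0.0081) and by 0.69 after the LF meal (-0.69 ± 0.08, adjusted p = 0.00022). The HF3h call was lost without Fasting array 1 (0.075) or either HF3h array (0.063 and 0.051), whereas the LF3h call held without any array.

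Junb, another AP-1 subunit, was 8.75 and 8.68 in Fasting, 8.72 and 8.73 at HF30min, 8.58 and 8.47 at HF1h and 8.16 and 8.18 at HF3h. In the LF series it was 9.14 and 9.19 at 30 min, 8.77 and 8.85 at 1 h and 8.39 and 8.55 at 3 h. Every LF array was thus above every HF array of the same time. Against Fasting, Junb fell by 0.54 at HF3h (log2 fold change -0.54 ± 0.09, adjusted p = 0.0017) and rose by 0.45 at LF30min (adjusted p = 0.035). The rise at LF30min was lost without any 1 of 8 arrays, those of Fasting, LF30min, HF30min and HF3h (adjusted p 0.06 to 0.26). Maff, a small Maf protein that lacks an activation domain, was near background, at 5.84 and 5.88 in Fasting, and passed no test against it. Jun, Jund and Fosl2 (9.18 to 10.75 over their pool means) were not called against Fasting in any pool, but the other probe set of Jun, 8.6 on average, was lower at HF1h (log2 fold change -0.47, adjusted p = 0.017). Fosb and Fosl1 were under 6.

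**Figure D2:**
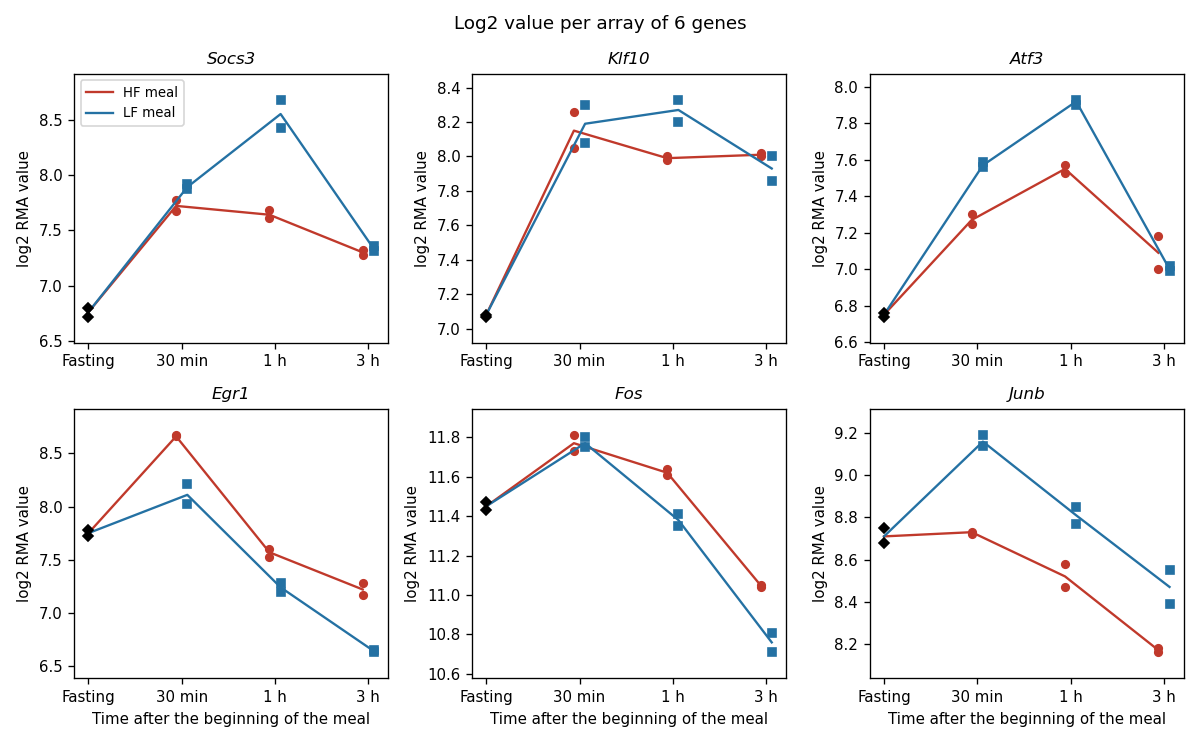
Log2 value (vertical axis) of 6 genes across Fasting and the 3 times after the HF meal (red circles) or the LF meal (blue squares), with Fasting as black diamonds; each symbol is 1 array and lines join pool means. Socs3 and Atf3 were highest at LF1h, Klf10 stayed near 8 in all fed pools, and Egr1, Fos and Junb were lowest at 3 h.

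Egr1, a zinc-finger factor of the EGR family, had the widest range of the 37 (2.02 log2 units between pool means). Against Fasting it was called higher at HF30min only, and lower at LF1h and at 3 h after both meals. It read 7.78 and 7.72 in Fasting, 8.67 and 8.66 at HF30min, 7.53 and 7.60 at HF1h and 7.28 and 7.17 at HF3h. In the LF series it read 8.02 and 8.21 at 30 min, 7.20 and 7.28 at 1 h and 6.63 and 6.65 at 3 h. The HF30min arrays lay above all others and the LF3h arrays below all others. Egr1 rose by 0.92 at HF30min (1.89-fold, SE 0.09, adjusted p = 6.9e-05), and its LF30min value differed from Fasting by 0.36 (adjusted p = 0.13). It fell at LF1h (log2 fold change -0.51, adjusted p = 0.0083), LF3h (-1.11, adjusted p = 9.3e-06) and HF3h (-0.52, adjusted p = 0.0028). Its LF1h call was lost without either Fasting array (0.1 and 0.051) or LF1h array 1 (0.08). Egr2 and Egr3 were under 6, and Nr4a1, Nr4a2 and Nr4a3, nuclear orphan receptors, reached 6 but were called in none of the 11 comparisons.

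Ier5, a nuclear immediate early response protein, rose in 5 of 6 fed pools. It read 7.89 and 8.06 in Fasting, 8.45 and 8.49 at HF30min, 8.29 and 8.27 at HF1h and 8.39 and 8.28 at HF3h. The LF arrays read 8.49 and 8.66 at 30 min, 8.72 and 8.72 at 1 h and 8.59 and 8.66 at 3 h. All fed arrays exceeded both Fasting arrays, and the LF arrays at 1 h and 3 h exceeded the HF arrays of the same time. Ier5 rose by 0.50 at HF30min and 0.36 at HF3h (adjusted p = 0.017 and 0.034), and by 0.60, 0.74 and 0.65 at LF30min, LF1h and LF3h (adjusted p = 0.0077, 0.00041 and 0.00098). With the mean of its probe sets the changes at HF30min, HF3h and LF30min were 0.25, 0.09 and 0.37 and were not called, and 1 of its other probe sets, 5.05 on average, read -0.29 at HF3h. Leaving out Fasting array 1 also ended those 3 calls (adjusted p = 0.25, 0.27 and 0.14). They were lost as well without either HF30min array (0.1 and 0.15), without Fasting array 2 or either HF3h array for HF3h (0.055, 0.22 and 0.078), and without LF30min array 2 (0.11). Ier2, Csrnp1 and Myc were not called against Fasting.

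Among the Dusp genes, the 3 that reached 6 followed different courses. Dusp1, a nuclear phosphatase for several MAPK, read 8.37 and 8.36 in Fasting, 8.62 and 8.71 at HF30min, 8.31 and 8.37 at HF1h and 8.50 and 8.50 at HF3h. In the LF series it read 8.91 and 9.06, 8.67 and 8.47, and 8.12 and 8.13 at 30 min, 1 h and 3 h. Its only call against Fasting was the rise of 0.62 at LF30min (SE 0.09, adjusted p = 0.0059), which was lost without either Fasting array (0.077 and 0.065) or LF30min array 2 (0.092). Dusp5, a nuclear phosphatase for ERK, read 8.17 and 8.11 in Fasting, 8.25 and 8.29 at HF30min, 8.26 and 8.32 at HF1h and 8.03 and 8.18 at HF3h. After the LF meal Dusp5 read 8.37 and 8.48 at 30 min, 8.6 and 8.6 at 1 h and 7.73 and 7.77 at 3 h. It was above Fasting at LF1h (log2 fold change 0.46, adjusted p = 0.011) and below it at LF3h (-0.39, adjusted p = 0.017). Both Dusp5 calls were lost without any 1 of the 4 arrays compared (adjusted p 0.067 to 0.12 at LF1h and 0.065 to 0.15 at LF3h).

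Dusp6, the cytoplasmic phosphatase for ERK, was alone among the 5 Dusp genes of the 37 in being called against Fasting after the HF meal. Outside the 37, Dusp14, under 6 in both pools, was higher at HF3h than in Fasting (0.81, adjusted p = 0.00077). Dusp16 was lower there (-0.73, adjusted p = 9.1e-05). Dusp6 read 10.08 and 10.17 in Fasting, 10.02 and 10.05 at HF30min, 10.56 and 10.53 at HF1h and 10.67 and 10.66 at HF3h. In the LF series it read 9.98 and 10.05 at 30 min, 10.57 and 10.43 at 1 h and 9.98 and 9.99 at 3 h. The 2 meals gave overlapping values at 30 min and 1 h, whereas at 3 h the HF arrays stood apart above the LF and Fasting arrays. Dusp6 rose by 0.42 at HF1h (adjusted p = 0.026), by 0.54 at HF3h (SE 0.08, adjusted p = 0.0013) and by 0.38 at LF1h (adjusted p = 0.037). The HF1h call was lost without any 1 of the 4 arrays compared (0.098 to 0.24), and the LF1h call without any of 10 arrays (0.056 to 0.3), all but those of LF30min and HF1h. The HF3h call held without any array. Dusp4, a nuclear phosphatase, was under 6 in all pools, with 5.64 and 5.70 at LF1h against 4.55 and 4.94 in Fasting, a rise of at least 0.93 (adjusted p = 0.0025). Dusp2 was also under 6 and was not called.

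**Figure D3:**
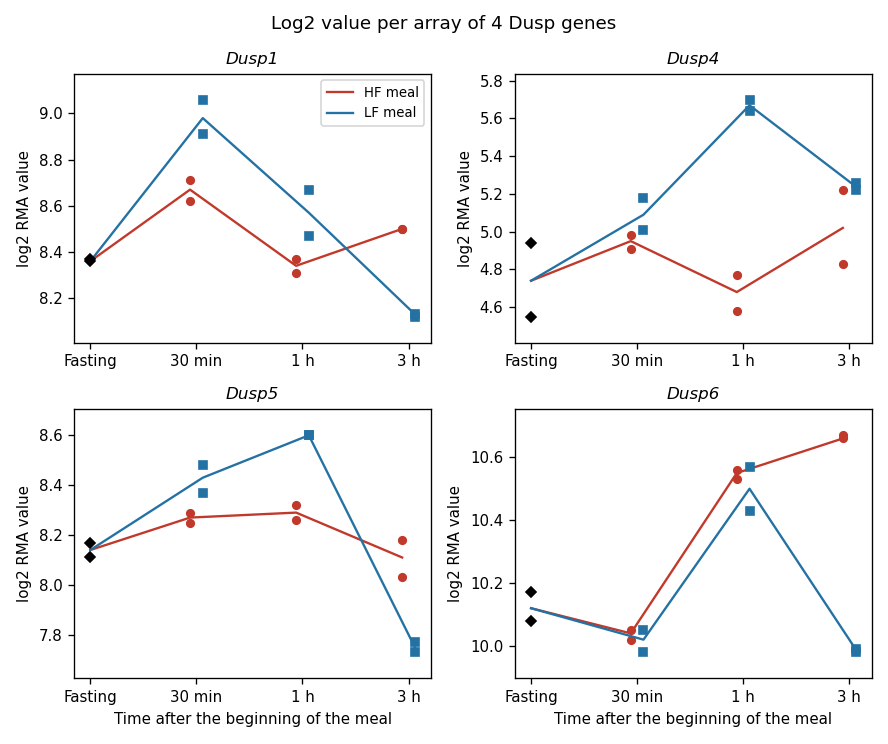
Log2 value (vertical axis) of Dusp1, Dusp4, Dusp5 and Dusp6 across Fasting and the 3 times after the HF meal (red circles) or the LF meal (blue squares), with Fasting as black diamonds; each symbol is 1 array and lines join pool means. At 3 h Dusp6 was 10.66 after the HF meal and 9.99 after the LF meal, and Dusp4 stayed under 6 throughout.

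Socs3, the inhibitor of JAK-STAT signalling, showed the largest rise of the 37. It read 6.72 and 6.80 in Fasting, 7.77 and 7.67 at HF30min, 7.61 and 7.68 at HF1h and 7.28 and 7.32 at HF3h. In the LF series it read 7.87 and 7.92 at 30 min, 8.68 and 8.42 at 1 h and 7.31 and 7.36 at 3 h. All fed arrays exceeded both Fasting arrays. Log2 fold changes were 0.96, 0.88 and 0.54 after the HF meal (adjusted p = 8.8e-05, 0.00024 and 0.0037) and 1.13, 1.79 and 0.57 after the LF meal (SE 0.09; adjusted p = 2.8e-05, 2e-07 and 0.0032), or 3.46-fold at LF1h. These calls held without any array. Another Socs3 probe set read similar changes (0.51 to 0.92 for HF and 0.58 to 1.58 for LF), while a further one, 6.80 on average, read 0.16, 0.30 and 0.08 after the HF meal and 0.34, 1.08 and -0.01 after the LF meal. With the mean of the probe sets, the change at LF3h was 0.38.

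The other feedback genes moved less. Zfp36, or tristetraprolin, rose by 0.48 at HF1h and by 0.55 and 0.63 at LF30min and LF1h (SE 0.08; adjusted p = 0.0078, 0.0047 and 0.00048). The call at HF1h was lost without Fasting array 1 (0.12) or either HF1h array (0.054 and 0.052), and that at LF30min without Fasting array 1 (0.094) or LF30min array 2 (0.055). Gadd45b, a stress sensor that acts on MAPK kinases, read 7.99 and 8.11 at LF30min and 7.87 and 7.97 at LF1h against 7.15 and 7.47 in Fasting. The LF arrays lay above both Fasting arrays. The rises of 0.74 and 0.61 (adjusted p = 0.012 and 0.018) were lost without Fasting array 1 (0.19 and 0.24), without LF30min array 2 (0.12) and without either LF1h array (0.062 and 0.12). Another Gadd45b probe set, 6.76 on average, read 0.55 at both times (adjusted p = 0.018 and 0.0078) and -0.47 for LF3h minus LF30min (0.014). A further probe set, 5.3 on average, read 0.19 and 0.27 (0.72 and 0.31), and -0.28 for LF3h minus LF30min (0.19). Gadd45b read 7.74 and 7.60 at HF30min, 7.67 and 7.72 at HF1h, 7.49 and 7.32 at HF3h and 7.77 and 7.53 at LF3h, and was not called there.

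Zfp36l1, a relative of Zfp36, and Btg2, an antiproliferative protein, fell at 3 h. Zfp36l1 was 9.30 and 9.36 at HF3h against 9.77 and 9.84 in Fasting (log2 fold change -0.47, adjusted p = 0.012), a call lost without any 1 of these 4 arrays (0.054 to 0.11). Its HF30min, HF1h and LF arrays lay between 9.61 and 10.05. Btg2 was 8.31 and 8.43 at LF3h against 9.04 and 8.79 in Fasting (-0.54, adjusted p = 0.0056), and its call was lost without Fasting array 1 (0.089) or LF3h array 1 (0.061). The other probe set of Btg2, 8.19 on average, read -0.53 at LF3h (adjusted p = 0.0016). Gadd45a, which shares the stress-sensor family, and Ier3, a regulator of cell survival, were called in no comparison. With Jund, Klf4, Ier2 and the 3 Nr4a genes they made 8 genes that reached 6 without a call in 11 comparisons, and their fold changes against Fasting ran from -0.17 to 0.43. The matricellular genes Cyr61 and Ctgf, secreted targets of SRF and YAP, were near background.

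Markers of other cell types moved against Fasting in the same pools. Of the 8 stomach and Brunner's gland markers, 8 were higher at HF30min, 1 at HF1h (median log2 fold change 0.2) and 6 at HF3h, and 7, 5 and 1 at LF30min, LF1h and LF3h, where 3 were also lower. Of the 7 acinar markers, all were lower at HF30min (median -0.87), 6 were higher at HF1h (0.48) and all were higher at HF3h (0.57), while none was called at LF30min (-0.09), all were higher at LF1h (0.62) and none was called at LF3h (-0.24). At HF3h 3 of 5 adipocyte markers rose too (0.59), and 1 of 7 myeloid and 1 of 6 goblet and Paneth markers were lower. At HF30min 1 of 10 smooth muscle markers was higher. At LF3h 1 of 7 fibroblast, 1 of 5 adipocyte and 1 of 4 B cell markers were higher. Their part in the changes of the 37 genes was not tested.

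Comparisons of 3 h with 30 min of the same meal take no difference from the Fasting arrays, which entered only the estimate of error. After the HF meal 2 genes were higher and 9 lower at 3 h (29.7% of the 37, where 8.95% of all genes and 16.6% of those with a mean of at least 6 were called, and 3.08% of all genes were higher and 5.87% lower). After the LF meal none was higher and 12 were lower (32.4%, against 4.31% and 8.62%, with 1.99% higher and 2.32% lower). The median difference of the 37 was -0.16 for the HF meal and -0.26 for the LF meal. Fos, Fosl2, Junb, Egr1, Klf6 and Socs3 were lower at 3 h after both meals. For Egr1 the difference was -1.44 for HF3h minus HF30min and -1.47 for LF3h minus LF30min (adjusted p = 2.4e-07 and 4.6e-07), for Fos -0.73 and -1.02 (8.1e-05 and 9.2e-06), for Junb -0.56 and -0.69 (0.0013 and 0.0005) and for Klf6 -0.44 and -0.60 (0.013 and 0.0033). Egr1, Fos and Junb kept these calls without any array. Socs3 differed by -0.42 and -0.56 (0.016 and 0.005), and its HF call was lost without any 1 of the 4 arrays compared (0.057 to 0.12). The HF call of Klf6 was lost without HF30min array 2 (0.15) or either HF3h array (0.057 and 0.089). Other Socs3 probe sets read -0.41 and -0.08 for HF3h minus HF30min (adjusted p = 0.045 and 0.7). For LF3h minus LF30min they read -0.43 and -0.35 and were not called (0.053 and 0.06). Fosl2, another AP-1 subunit, differed by -0.45 and -0.43 (0.0058 and 0.012), but its other probe set, 5.67 on average, read 0.36 and 0.20, and the mean of the 2 gave no call. The HF call of Fosl2 was lost without HF30min array 1 (0.061), and its LF call without any 1 of the 4 arrays compared (0.055 to 0.092).

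The other 6 genes lower at LF3h were not called for the HF meal, and whether the change over time differed between the meals was not tested. Dusp1 differed by -0.86 (adjusted p = 0.00015), Dusp5 by -0.68 (0.00048), Atf3 by -0.57 (0.0017), Zfp36 by -0.54 (0.0015) and Btg2 by -0.63 (0.0027). Maff, at 5.41 and 5.43 at LF3h against 5.95 and 6.23 at LF30min, differed by -0.67 or more (0.008), and this was lost without LF30min array 2 (0.074) or either LF3h array (0.061 and 0.065). After the HF meal, Zfp36l1 was lower at 3 h by its test (log2 difference -0.59, 0.0024) and Dusp6 was higher (0.63, 0.00036). The HF calls of Csrnp1 (-0.41), Jun (0.30) and Egr2 (-0.35, under 6) had adjusted p of 0.046, 0.043 and, rounded, 0.05. They were lost without any 1 of 10, 12 and 10 arrays, with adjusted p up to 0.3, 0.25 and 0.22. Stomach and Brunner's gland markers were lower at 3 h than at 30 min in both series (7 of 8 called, median -1.16 for HF and -3.07 for LF), acinar markers were higher in the HF series (7 of 7, median 1.44), and 2 of 10 smooth muscle markers were lower in the HF series and 4 of 10 in the LF series. In the HF series 3 of 7 myeloid, 2 of 6 goblet and Paneth and 1 of 7 fibroblast markers were also lower, and 2 of 5 adipocyte and 1 of 9 enterocyte markers were higher. In the LF series 1 of 7 endothelial, 1 of 4 B cell and 1 of 7 myeloid markers were higher.

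**Figure D4:**
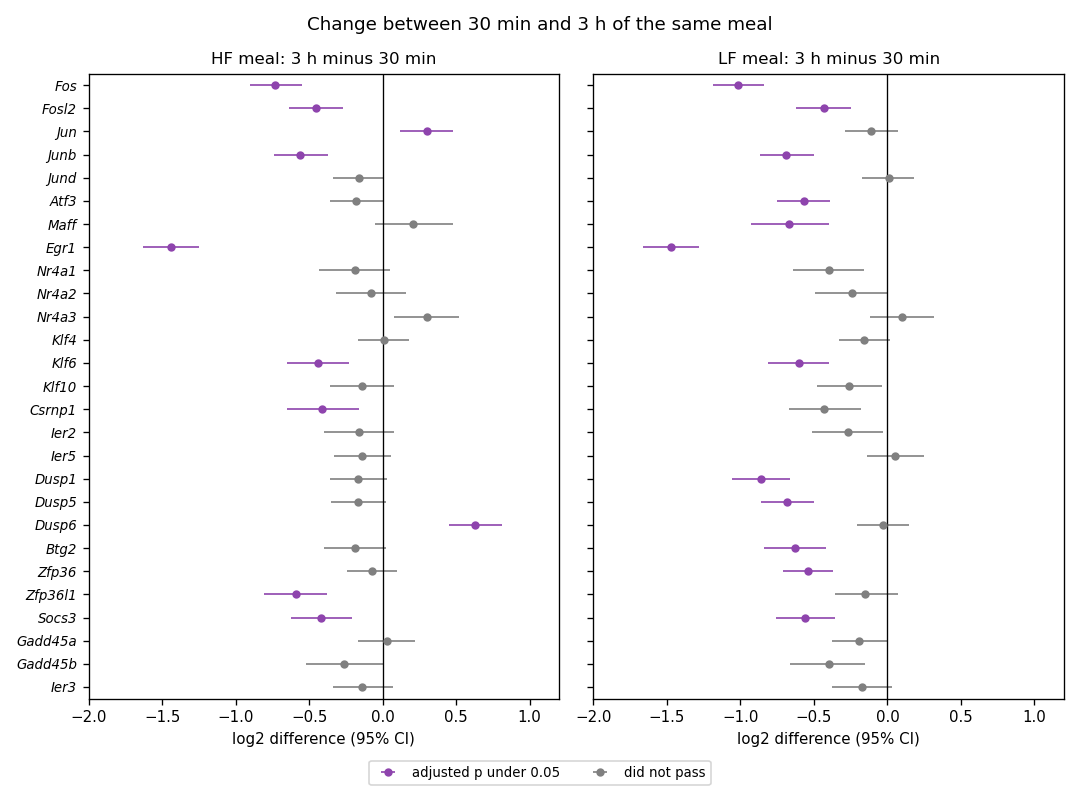
Log2 difference of 3 h minus 30 min with its 95% CI (horizontal axis) for the 27 genes that reached 6, after the HF meal (left) and the LF meal (right). Purple points had an adjusted p under 0.05 and grey points did not; Egr1 lies farthest to the left in both panels (-1.44 and -1.47), and Dusp6 farthest to the right in the HF panel (0.63).

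The HF pool was set against the LF pool at each time to ask whether the 2 meals differed. At 30 min 1 gene was higher and 1 lower after the HF meal (5.41% of the 37, where 0.55% of all genes and 0.968% of those with a mean of at least 6 were called, and 0.297% of all genes were higher and 0.253% lower). At 1 h none was higher and 2 were lower (5.41%, against 0.225% and 0.417%, with 0.066% higher and 0.159% lower), and at 3 h 4 were higher and 1 lower (13.5%, against 2.2% and 3.94%, with 1.19% higher and 1.01% lower). The median of the 37 was -0.10, -0.07 and 0.07.

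Egr1 was higher after the HF meal at 30 min (log2 difference 0.55, adjusted p = 0.012) and at 3 h (0.58, adjusted p = 0.0035), and its 1 h difference of 0.33 (95% CI 0.14 to 0.52) had an adjusted p of 0.20. The call at 30 min was lost without LF30min array 1 (0.17) or either HF30min array (0.11 each), and that at 3 h without HF3h array 1 (0.059). Junb was lower after the HF meal at 30 min (-0.43, adjusted p = 0.048), a call that was lost without any 1 of the 14 arrays (0.054 to 0.26). At 30 min 3 of 8 gastric markers were higher (median 0.56) and 6 of 7 acinar markers lower (-0.74) after the HF meal. There 1 of 7 myeloid and 1 of 6 goblet and Paneth markers were higher as well. Socs3 at 1 h was 7.61 and 7.68 after the HF meal against 8.68 and 8.42 after the LF meal, 1.88-fold lower (log2 difference -0.91 ± 0.09, adjusted p = 0.00074). This call held without any array and gave an adjusted p of 0.12 when only these 2 groups were fitted. All 3 Socs3 probe sets read -0.78 to -0.91. At 30 min and 3 h Socs3 differed by -0.18 (95% CI -0.38 to 0.03) and -0.04 (-0.24 to 0.17). Dusp4 at 1 h was 4.58 and 4.77 against 5.64 and 5.70 (log2 difference of -0.99 or lower, adjusted p = 0.0093), a call lost without either LF1h array (0.075 and 0.076) or HF1h array 1 (0.086). Of the 8 gastric markers, 4 were lower at HF1h than at LF1h (median -0.63).

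At 3 h the genes that were higher after the HF meal were Dusp6, Egr1, Maff and Dusp5. Dusp6 was 10.67 and 10.66 at HF3h against 9.98 and 9.99 at LF3h (1.60-fold, log2 difference 0.68 ± 0.08, adjusted p = 0.00049), and the call held without any array. Maff was 6.26 and 6.17 against 5.41 and 5.43, a difference of at least 0.79 (adjusted p = 0.0039), which was lost without HF3h array 1 (0.057). Dusp5 was 8.03 and 8.18 against 7.73 and 7.77 (0.36, adjusted p = 0.049), a call that was lost without any 1 of the 14 arrays (0.054 to 0.24). Dusp1 pointed the same way, with a difference of 0.37 (95% CI 0.18 to 0.57), but missed the threshold (adjusted p = 0.058). Zfp36l1 was 9.30 and 9.36 at HF3h against 9.80 and 9.85 at LF3h (-0.49, adjusted p = 0.024), and this was lost without any 1 of these 4 arrays (0.088 to 0.2). Other probe sets of Btg2 and Ier5 differed here, by 0.47 (adjusted p = 0.0077) and, near background, -0.69 (0.041), where the probe sets used for these genes were not called. Markers of the stomach and Brunner's gland (5 of 8, median 1.72), acinar cells (7 of 7, 0.79) and adipocytes (3 of 5, 0.66) were higher at HF3h than at LF3h, and no enterocyte marker of 9 differed. Lower at HF3h than at LF3h were 1 of 7 fibroblast, 1 of 4 B cell, 1 of 7 myeloid and 1 of 6 goblet and Paneth markers.

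**Figure D5:**
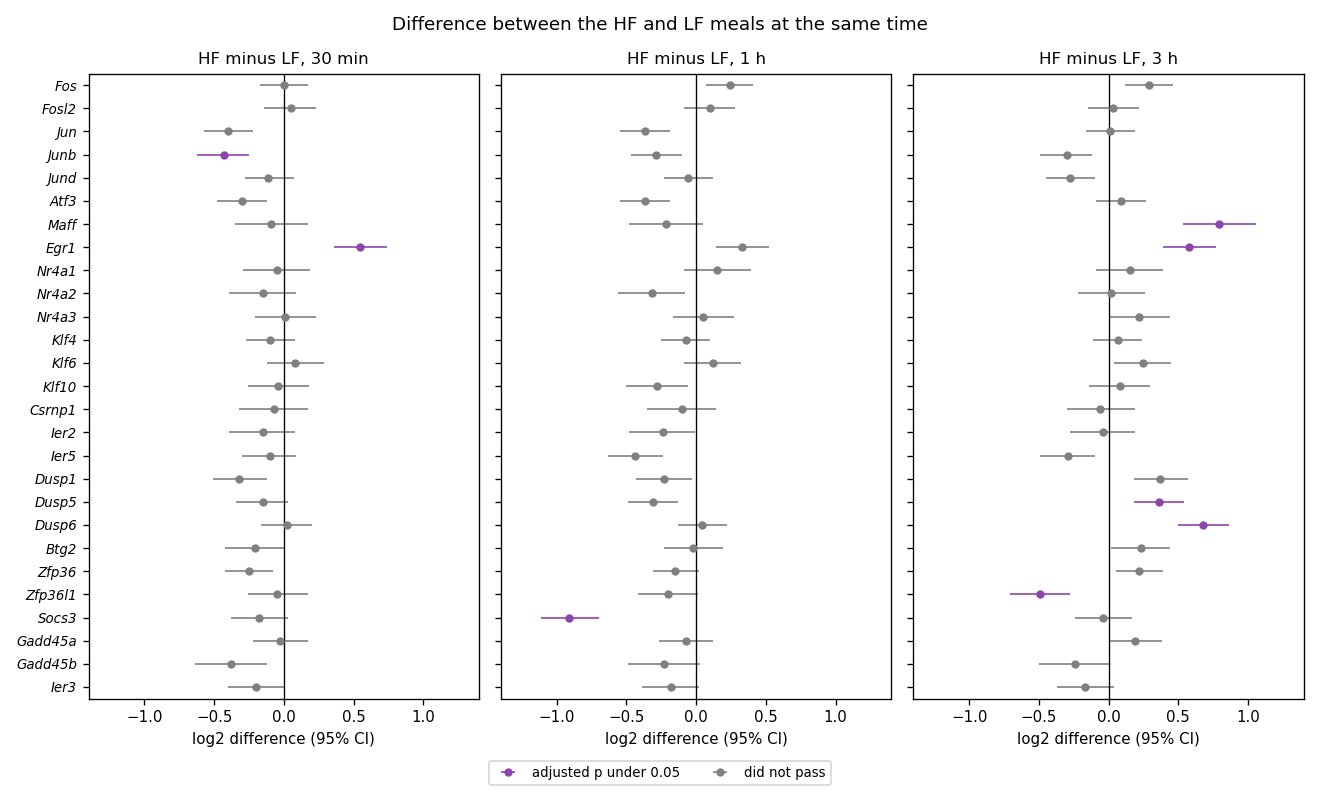
Log2 difference of the HF minus the LF pool with its 95% CI (horizontal axis) at 30 min, 1 h and 3 h for the 27 genes that reached 6. Purple points had an adjusted p under 0.05 and grey points did not; Socs3 lies farthest to the left at 1 h (-0.91), and Maff, Dusp6 and Egr1 to the right at 3 h (0.79, 0.68 and 0.58).

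Genes that signal to these promoters were read from a separate list of EGF receptor ligands and receptors, MAPK components, SRF, CREB and YAP factors, 38 of 46 of which were measured. Ereg alone of the 38 was called in each of the fed pools at 30 min and 1 h (2.63%). At HF30min, HF1h, LF30min and LF1h, 1.12%, 1.01%, 0.401% and 1.54% of all genes were called. Of genes with a mean of at least 6, 1.94%, 1.95%, 0.78% and 2.89% were. At HF3h 1 rose and 5 fell (15.8% of the 38, where 6.67% of all genes and 13.3% of those with a mean of at least 6 were called), and at LF3h 2 rose and 4 fell (15.8%, against 5.41% and 10.8%). Ereg, the EGF receptor ligand epiregulin, was 4.66 and 4.70 in Fasting, 6.14 and 6.01 at HF30min, 6.32 and 6.15 at HF1h and 6.66 and 6.53 at HF3h, and 5.24 and 5.45, 6.33 and 6.17, and 5.44 and 5.14 in the LF series. Fasting was near background, so the rises were at least 1.39, 1.55 and 1.91 after the HF meal and at least 0.66, 1.57 and 0.61 after the LF meal (adjusted p from 4.1e-07 to 0.022). The LF30min and LF3h means (5.34 and 5.29) were under 6 as well, so these 2 rises lay wholly near background. HF minus LF was at least 0.73 at 30 min (adjusted p = 0.013), -0.02 at 1 h (95% CI -0.27 to 0.24) and at least 1.30 at 3 h (2.7e-05). The LF30min call was lost without either Fasting array (0.23 and 0.13) or LF30min array 2 (0.21), and the LF3h call without Fasting array 1 (0.079) or LF3h array 1 (0.097). The difference at 30 min was lost without LF30min array 1 (0.17) or either HF30min array (0.16 and 0.071).

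Hbegf, a second ligand of the EGF receptor, moved the other way, with 8.35 and 8.38 at HF3h and 7.54 and 7.76 at LF3h against 8.73 and 8.72 in Fasting. It fell by 1.08 at LF3h (log2 fold change -1.08, adjusted p = 2.9e-05) and was 0.71 higher at HF3h than at LF3h (adjusted p = 0.0015). Its HF3h change of -0.37 (0.045) was lost without any of 8 arrays (0.056 to 0.2), those of Fasting, LF1h, HF30min and HF3h. The receptors Erbb3 and Erbb2 fell at 3 h after both meals. The log2 fold change of Erbb3 was -1.11 at HF3h and -1.21 at LF3h (2.2e-06 and 2.1e-06), with -0.56 at both times in its other probe set, and that of Erbb2 was -0.85 in both pools (3.4e-05 and 5.7e-05).

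Other genes that stimuli induce formed a further list, of which 48 of 50 were measured. In the HF pools 2 rose and none fell at 30 min (4.17% of the 48, where 1.12% of all genes and 1.94% of those with a mean of at least 6 were called), 3 rose and 2 fell at 1 h (10.4%, against 1.01% and 1.95%), and 7 rose and 10 fell at 3 h (35.4%, against 6.67% and 13.3%). In the LF pools 5 rose and none fell at 30 min (10.4%, against 0.401% and 0.78%), 6 rose and 4 fell at 1 h (20.8%, against 1.54% and 2.89%), and 5 rose and 11 fell at 3 h (33.3%, against 5.41% and 10.8%). At 3 h Errfi1, a feedback inhibitor of the EGF receptor, was 10.14 and 10.04 after the HF meal and 8.74 and 8.84 after the LF meal, against 9.46 and 9.47 in Fasting. Its arrays lay above Fasting in one series and below it in the other, and Errfi1 rose by 0.62 after the HF meal (adjusted p = 0.00073) and had a log2 fold change of -0.67 after the LF meal (0.00062), with a HF minus LF difference of 1.30 (1.1e-06). Its other probe set read 0.59 at HF3h and -0.26 at LF3h. Phlda1, whose product binds phosphoinositides, was 8.14 and 8.17 at HF3h and 6.67 and 6.46 at LF3h, against 7.97 and 7.89 in Fasting. It rose at 30 min after both meals, by 0.65 at HF30min (adjusted p = 0.0072) and 0.62 at LF30min (0.016). These calls were lost without either Fasting array (0.055 and 0.075 for HF, 0.11 and 0.14 for LF), HF30min array 2 (0.11) or LF30min array 2 (0.16). Phlda1 fell by 1.37 at LF3h (log2 fold change -1.37, adjusted p = 5.5e-06), and HF minus LF was 1.59 (8.8e-07).

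Among the rest of that list, Bhlhe40, a repressor in the circadian clock, rose by 0.47 and 0.91 at HF1h and HF3h and by 0.46, 1.10 and 1.08 at the 3 LF times. Its HF minus LF difference at 1 h was -0.64 (adjusted p = 0.005). The HF1h and LF30min rises of Bhlhe40 were lost without any 1 of the 4 arrays compared (0.053 to 0.15 and 0.12 to 0.26), and the HF minus LF call without LF1h array 1 (0.074) or HF1h array 2 (0.059). Cited2, which binds the coactivators CBP and p300, fell at 1 h and 3 h after both meals (log2 fold changes -1.0 and -1.26 for HF, -1.10 and -0.45 for LF), with the LF3h call lost without any 1 of the 4 arrays compared (0.099 to 0.11). Ifrd1 rose by 1.04 at HF3h (2.3e-06) and was 0.79 higher there than at LF3h (6e-05). Id2, an inhibitor of basic helix-loop-helix factors, rose by 0.90 and 0.89 at LF1h and LF3h (0.00093 and 0.00076), and its other probe sets read 0.45 to 0.92 at LF1h and 0.26 to 0.78 at LF3h. Sertad1 rose by 0.46 at both HF30min and HF1h and by 0.74 and 0.87 at LF30min and LF1h (0.001 and 8.6e-05), the HF calls being lost without any 1 of the 4 arrays compared (0.091 to 0.25 and 0.068 to 0.23). Adamts1, near background, rose by at least 0.95 at HF1h and at least 1.00 at LF1h (0.0034 and 0.0013), the HF1h call being lost without Fasting array 1 (0.064). Per1, a clock gene close to background, fell by at least 0.75 at LF3h (log2 fold change -0.75, adjusted p = 0.012), which was lost without Fasting array 2 (0.11) or LF3h array 2 (0.13).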

How the data were processed

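RNA from duodenal mucosa was measured in 7 pools of 20 mice, on 2 technical arrays each. The authors subtracted background and normalized probe set intensities by Robust Multiarray Analysis, and the deposited log2 values were used without further scaling (the log base follows from that method). Of 45101 probe sets, 45037 remained for testing once 64 control sets had been removed. By the platform's annotation, 34945 of these had 1 gene (34741 found among current genes through their Entrez ID), 932 had several and 9160 had none. Each gene was represented by its single-gene probe set of highest average signal across the 14 arrays.

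Group means were modelled with limma 3.58.1 under R 4.3.3, which left 7 residual and 6.404 prior degrees of freedom, and 11 contrasts were each adjusted by Benjamini-Hochberg. The median SE of a log2 fold change was 0.1105, and the number of arrays limits the precision. The fit was also tested on simulated data with known changes.

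Per-array values were given for the 14 genes with the widest range of pool means among those called in at least 1 contrast and reaching a log2 value of 6, and for at most 12 called list genes with at least a 1.5-fold change. Values of Dusp4 and Btg2 and of Erbb2, Dusp14 and Dusp16 were added after they had been seen. Promoters, at most 4 among the named genes, came from RefSeq (GRCm38.p6). The genes and lists were chosen with earlier results of these data known, so no set was tested. Alternatives were array centring, a filter at log2 6, an intensity trend with a robust prior, the replicate number as a block, averaging the probe sets of a gene, a fit of only the groups compared, a stricter p, and each array left out. Marker sums were the log2 of summed linear values. Python 3.11.15 and matplotlib 3.10.9 were used for figures. The serial analysis of gene expression of the study was not analysed here.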

Additional observations from a re-analysis of the deposited data

Results flagged for a closer look

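The differences between the meals at the same time that passed the direct test of HF against LF are listed with their log2 difference (HF minus LF). At 30 min Egr1 differed by 0.55 and Junb by -0.43. At 1 h Socs3 differed by -0.91 and Dusp4, near background, by -0.99. At 3 h Maff differed by 0.79, Dusp6 by 0.68, Egr1 by 0.58, Dusp5 by 0.36 and Zfp36l1 by -0.49. Of these, the differences of Socs3 at 1 h and of Dusp6 at 3 h held without any of the 14 arrays, and the other 7 were lost without at least 1. Each rests on 1 pool of mice per meal and time.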

How the results depend on the processing

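Of 77 calls over 11 comparisons, none reversed under any alternative. Calls that remained numbered 72 with centred arrays, 72 of 72 with the filter at log2 6, 76 with an intensity trend and robust prior, 69 with the mean of probe sets, 51 with only the groups compared, 55 at an adjusted p under 0.01, and 42 when each array in turn was left out. Numbers of genes called moved by over 1.5 times as follows, and the cause was not tested. Some of the alternatives used fewer arrays or probe sets, whereas centring, the trend with robust prior and the stricter p used all of them. With the filter, the counts were 8, 14, 14 and 14 at HF30min, HF3h, LF30min and LF3h against Fasting, and 6, 7 and 10 for HF against LF at 30 min, 1 h and 3 h. With the trend and robust prior they were 10, 9, 16, 15 and 15 at HF30min, HF1h, HF3h, LF30min and LF3h, and 6, 9 and 12 for HF against LF. With only the groups compared they were 3 at HF1h, 3 at LF30min and 6 at LF1h, 0, 0 and 3 for HF against LF, and 7 for HF3h against HF30min. With the mean of probe sets they were 4 and 11 for HF against LF at 1 h and 3 h, and 7 for HF3h against HF30min. At an adjusted p under 0.01 they were 0 and 3 for HF against LF at 30 min and 3 h, and 6 for HF3h against HF30min. Centring left 1 for HF against LF at 30 min. With 1 array left out, the counts ranged from 3 to 5 at HF30min, 3 to 5 at HF1h, 5 to 9 at HF3h, 3 to 8 at LF30min, 6 to 10 at LF1h and 5 to 9 at LF3h. They ranged from 0 to 1, 1 to 2 and 1 to 5 for HF against LF at 30 min, 1 h and 3 h, from 6 to 10 for HF3h against HF30min and from 10 to 13 for LF3h against LF30min. A pool with 1 array was assumed to vary like the others.

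Replicate numbers did not pair the arrays (correlations of same-numbered deviations from -0.33 to 0.27). With the replicate number as a block, 70 of 77 calls remained and HF against LF at 30 min had 1 call.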
